A study of Mus musculus with 2 samples.

Results

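The 10 genes examined here were grouped as genes of brain endothelium and the early blood-brain barrier, though other cells can express them. They are Cldn5, Kdr, Pecam1, Cdh5, Slc2a1, Mfsd2a, Abcb1a, Abcg2, Adgra2 and Slco1c1. They were chosen by name, and all 10 were found among the 55536 genes of the GENCODE M21 annotation on mm10. RNA-seq of polyadenylated RNA had been made from the mouse hindbrain of healthy B6NCrl embryos of both sexes at embryonic day 12.5, with no treatment and no genetic change named in the labels. The series holds 1 group of 2 replicates: pool 1 came from 120 embryos and pool 2 from 88 embryos, and each library was made from 10 ng of RNA. Genes took 31469575 expected counts in pool 1 and 29261472 in pool 2, and spike-in RNAs took 3.31% and 4.25% of the totals. Both replicates are pools of dissected whole hindbrain with no sort, so no value belongs to 1 animal or to 1 cell type, and with no other group every value here is a description without a test.

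Blood vessels grow into the neural tube from the plexus around it, drawn by VEGF, and meet neural progenitors that secrete Wnt7 ligands. Wnt7 signals reach the endothelial cell through the coreceptor pair Reck and Adgra2, and beta-catenin signalling then turns on barrier genes. A mature barrier has endothelial cells that are sealed by tight junctions, carry few transcytotic vesicles, import glucose, lipids and hormones through dedicated carriers, and expel many drugs through ABC pumps.

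The exon sequences below are shown because the division of Pecam1 into transcripts turned on whether a transcript held them. In Pecam1, an alternative exon of 57 bases (chr11:106671742-106671798, minus strand, mm10) codes for part of the cytoplasmic tail around one of the tyrosines of its inhibitory signalling motifs. A further exon of 23 bases (chr11:106662002-106662024) follows it in a few transcripts. Capitals mark the alternative exon, and lower case marks 15 bases of the joined exons on either side, as spliced in GENCODE M21 transcripts.
Pecam1-202: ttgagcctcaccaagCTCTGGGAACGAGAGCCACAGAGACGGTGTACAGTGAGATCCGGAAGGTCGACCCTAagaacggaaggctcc
Pecam1-203: ttgagcctcaccaagagaacggaaggctcc
Pecam1-204: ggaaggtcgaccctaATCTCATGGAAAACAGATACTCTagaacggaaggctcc

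Of the 10 genes, 9 were expressed at 1 TPM (an abundance per transcript length, scaled to the same total in each library) or more in both pools, and Abcb1a, a drug efflux pump, was the exception. At that level stood 29.0% of all 55536 genes and 61.8% of the 22028 protein-coding genes. The median over the 10 genes was 19.5 TPM (19.8 in pool 1 and 19.2 in pool 2), and the median over protein-coding genes at 1 TPM or more was 21.8 TPM. Slc2a1, the glucose carrier, stood highest, 161-fold above Abcb1a by mean TPM. The order below Slc2a1 was Abcg2, Cldn5, Kdr, Mfsd2a, Pecam1, Cdh5, Slco1c1, Adgra2 and Abcb1a, and it was the same in both pools except that Kdr stood above Cldn5 in pool 1. Cldn5 and Kdr were also the only neighbours in that order whose values in the pools overlapped. The order held less well on the older annotation M4. There Cldn5 (28.4 TPM) stood above Abcg2 (26.0) in pool 2, and Adgra2 (4.73) above Slco1c1 (4.53) in pool 1. In whole tissue, fewer cells of a type and less RNA per cell cannot be told apart.

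**Figure D1:**
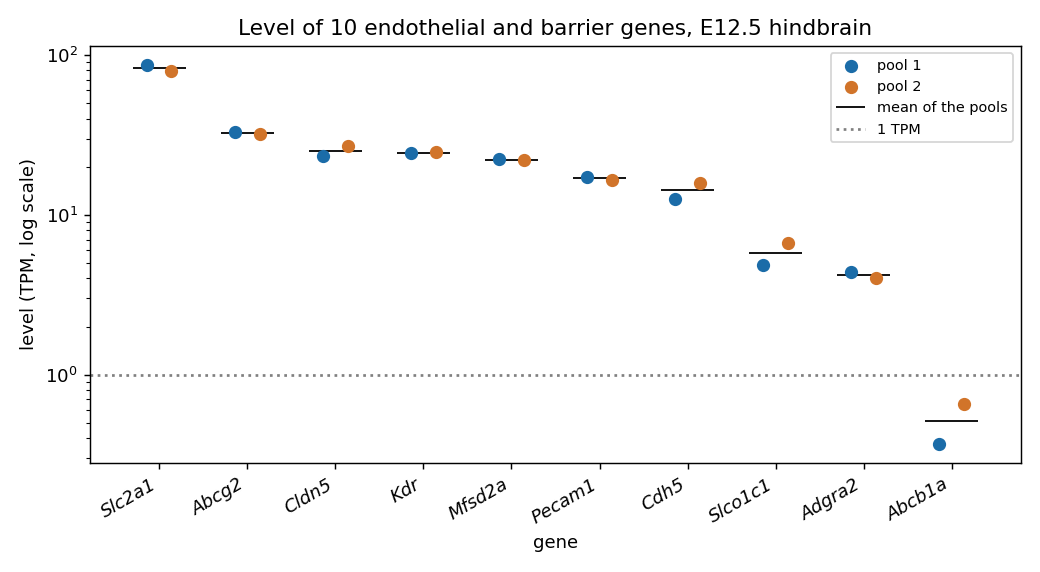
Level of each of the 10 genes in TPM on a log axis, with pool 1 left of pool 2 and a line at the mean of the pools. Slc2a1 is highest at 86.7 and 79.0 TPM, and Abcb1a at 0.370 and 0.660 TPM is the only gene below the dotted line at 1 TPM.

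The products of Kdr, Cldn5, Pecam1 and Cdh5 build or identify the endothelial cell. Kdr, the main VEGF receptor of endothelium (chr5:75932827-75978458, minus strand), had 24.4 TPM in pool 1 and 24.6 TPM in pool 2, from 2806 and 2623 expected counts. This was 24.5 ± 0.163 TPM (SD, n = 2), the smallest SD of the 9 genes above 1 TPM. Cldn5, the dominant claudin of brain endothelial tight junctions (chr16:18776847-18778262, plus strand), had 23.3 and 26.9 TPM (612 and 653 counts). Its mean was 25.1 ± 2.60 TPM, with pool 2 higher.

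Pecam1, a platelet and endothelial adhesion receptor (chr11:106654217-106750628, minus strand), had 17.3 and 16.5 TPM from 1057 and 951 counts. Cdh5, the cadherin of endothelial adherens junctions (chr8:104101625-104144511, plus strand), had 12.5 and 15.8 TPM from 975 and 1135 counts. Its mean of 14.2 ± 2.33 TPM was the lowest of these 4 genes, and its pools lay further apart than those of Pecam1 (16.9 ± 0.516 TPM). The larger marker set for endothelium, with Tie1, Tek, Erg and Egfl7 beside these 4, was at 1 TPM or more for 8 of 8 genes and summed to 162 TPM in pool 1 and 159 TPM in pool 2.

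Adgra2, also called Gpr124, is the adhesion G-protein-coupled receptor that works with Reck in the Wnt7 response of brain endothelium (chr8:27085583-27123436, plus strand). It had 4.41 and 4.03 TPM (452 and 396 counts), 4.22 ± 0.269 TPM in the mean, and ranked 11546 among protein-coding genes. Its exons overlap those of the antisense gene Brf2, at 16.3 and 20.6 TPM, over 73 of 5775 bases. No source used here states whether reads were counted by strand, so up to that 1.26% of its length could hold reads of Brf2. Reck itself had 15.5 and 16.8 TPM, above Adgra2 in both pools.

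Among the carriers, Slc2a1, which codes for GLUT1 (chr4:119108711-119137983, plus strand), had 86.7 TPM in pool 1 and 79.0 TPM in pool 2. With 4556 and 3694 counts it held the most reads of the 10 genes, and at 82.8 ± 5.44 TPM it ranked 2048 among protein-coding genes. Mfsd2a, the carrier of lysophospholipid-bound omega-3 fatty acids that also restrains transcytosis (chr4:122946850-122961188, minus strand), had 22.3 and 21.9 TPM from 811 and 725 counts. Its pools were close, at 22.1 ± 0.276 TPM, and its level was near those of Kdr and Cldn5. Slco1c1, the thyroxine carrier of the barrier (chr6:141524368-141570177, plus strand), was lower, at 4.88 and 6.66 TPM from 258 and 308 counts. Its mean was 5.77 ± 1.26 TPM, with pool 2 above pool 1.

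The 2 efflux pumps stood far apart. Abcg2, also known as the breast cancer resistance protein (chr6:58584523-58695676, plus strand), had 33.0 and 32.1 TPM from 1046 and 927 counts, a mean of 32.5 ± 0.629 TPM. Of this level, 9.57 and 8.16 TPM were given to Abcg2-210, a transcript of 348 bases with only 47.6 and 37.4 counts. The place of Abcg2 in the order of the 10 genes and its ratio to Cdh5 include that short transcript. Abcb1a, one of the pair of mouse P-glycoprotein genes (chr5:8660077-8748575, plus strand), had 0.370 TPM in pool 1 and 0.660 TPM in pool 2 from 36 and 44 counts. These counts are above the floor of 3 counts, which corresponds to 0.0307 TPM in pool 1 and 0.0450 TPM in pool 2, so Abcb1a was detected in both pools.

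The precision of the Abcb1a value is low. The lower and upper bounds deposited beside its TPM, whose level is not stated, ran from 0.340 to 5.39 in pool 1 and from 0.569 to 6.03 in pool 2. Most of that range came from Abcb1a-204, a transcript of 129 bases with no counts, whose own upper bounds were 4.84 and 5.16 TPM. Of the windows of 100 bases along Abcb1a-201, 8.51% also occur in transcripts of other genes (Abcb1b, Gm42686 or Abcb4), so reads there are hard to place. The same measure was 0.190% for Slc2a1 and 0 for the other 8 genes. Abcb1b, the second P-glycoprotein gene of the mouse, was likewise low, at 0.840 and 0.930 TPM. RefSeq also places a start of Abcb1a 92986 bases upstream of the GENCODE M21 start, and transcripts from there were not analysed here.

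On the scale of Cdh5 in the same library, Slc2a1 stood 6.92-fold higher in pool 1 and 4.99-fold higher in pool 2. Abcg2 was 2.63- and 2.03-fold, Kdr 1.94- and 1.55-fold, Cldn5 1.86- and 1.70-fold, and Mfsd2a 1.78- and 1.38-fold the level of Cdh5. Pecam1 was closest to Cdh5, at 1.38- and 1.04-fold. Slco1c1 (0.389 and 0.421), Adgra2 (0.352 and 0.255) and Abcb1a (0.0295 and 0.0417) were below it in both pools. The median log2 level over Cdh5 was 0.83 in pool 1 and 0.47 in pool 2, and 0.65 ± 0.26 in the mean (SD, n = 2). Of these genes, Slc2a1 is also well known from red blood cells and Abcg2 from stem cells and erythroid precursors, so a level over Cdh5 does not say which cells held the RNA.

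The pools differed little in these genes. Of the 9 genes with 50 or more mean counts, 0 were 1.5-fold or more apart in scaled counts, and over all 14989 genes of that depth the share was 3.43%. The median size of the log2 ratio was 0.08 for the 9 genes and 0.10 for all genes, whose 90th percentile was 0.35. Of the 10 genes, 5 were higher in pool 1 and 5 in pool 2. The widest ratio of pool 1 over pool 2 among the 9 genes was that of Slco1c1, at -0.36 on the log2 scale with a 95% counting interval of -0.61 to -0.12.

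Cdh5 came next at -0.33 (-0.45 to -0.20), then Cldn5 at -0.20 (-0.36 to -0.04) and Slc2a1 at 0.20 (0.13 to 0.26). For these 4 genes the interval excluded 0, as it did for 35.0% of all genes of that depth. Such intervals cover counting error only and leave out variation between embryos and between libraries. Repeat reads of 1 molecule are not covered either, since no molecular identifiers are mentioned. The other 5 deep genes lay between -0.01 (Kdr) and 0.08 (Adgra2), each with 0 inside its interval. Abcb1a had a ratio of -0.39, with an interval of -1.07 to 0.27 that its few counts leave wide.

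The sign of the small ratios depended on the scaling. Scaling to spike-in totals moved the ratio of every gene by 0.37 towards pool 1, and 9 of the 10 genes were then higher in pool 1. Cldn5 stood at 0.17, Kdr at 0.36, Cdh5 at 0.05 and Slco1c1 at 0.01 under that scaling, each negative under TMM.

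**Figure D2:**
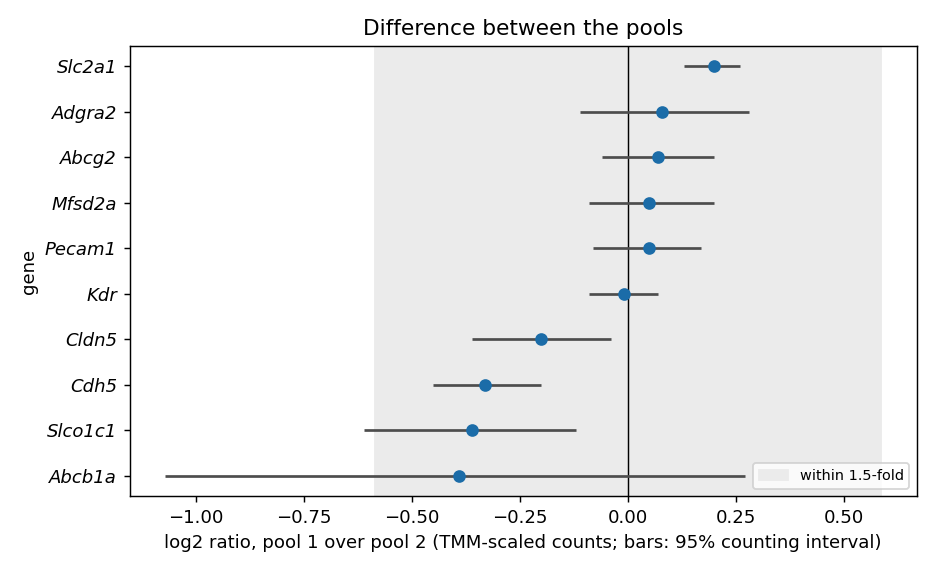
Log2 ratio of TMM-scaled counts, pool 1 over pool 2, for each gene, with bars for the 95% counting interval and grey for differences within 1.5-fold. All 10 points lie in the grey band, from -0.39 for Abcb1a to 0.20 for Slc2a1, and the bar of Abcb1a is the widest.

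Transcript estimates showed which forms of these genes the reads were given to. Cldn5-201 and Cdh5-201 took 100% of their genes in both pools, and Kdr-201 took 97.5% in pool 1 and 98.7% in pool 2. The leading transcript was the same in both pools for 8 of the 10 genes. The exceptions were Abcb1a and Slco1c1, and by expected counts only Slco1c1 was one, so that 9 of 10 genes then had the same leading transcript in both pools. Abcb1a-201, the coding transcript, held 100% in pool 1 and 43.9% in pool 2, where Abcb1a-202, with a retained intron, took the other 56.1% from 17.6 counts. Mfsd2a-201 led with 86.6% and 85.0% of its gene's TPM.

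The leading form of Pecam1 lacked both alternative exons of the tail. Pecam1-203, whose junction without the alternative exons is printed above, had 9.12 and 10.6 TPM (571.1 and 610.7 counts), or 52.8% and 64.0% of the gene. Pecam1-202, with the exon of 57 bases, had 4.25 and 3.02 TPM, and Pecam1-204, which also holds the exon of 23 bases, had 1.01 and 1.16 TPM. Over the transcripts that span the site, the exon of 57 bases was held by 45.3% of TPM in pool 1 and 35.3% in pool 2 (40.3% ± 7.10, SD, n = 2). The exon of 23 bases was held by 19.4% and 16.8%. Pecam1-207, which lacks an upstream exon of 303 bases, had 2.21 and 1.58 TPM, so that exon was held by 86.7% and 90.3%. On the older annotation M4 the exon of 57 bases was held by 45.5% and 35.4%, close to the shares on M21.

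Slc2a1 was split on M21 and not on M4. On M21, Slc2a1-204, which skips an exon of 163 bases and is annotated as a target of nonsense-mediated decay, had 44.5 TPM in pool 1 and 44.8 TPM in pool 2, beside 42.0 and 32.9 TPM for the coding Slc2a1-201. The deposited bounds of these transcripts overlapped in pool 1 (38.5 to 47.2 for Slc2a1-204 and 37.5 to 43.6 for Slc2a1-201) and did not in pool 2 (39.3 to 47.2 and 29.0 to 34.4). The skipped exon was thus held by 48.6% and 42.3% of TPM on M21, and by 99.6% and 100% on M4. On M4, Slc2a1-204 had 0.350 and 0 TPM from 8.2 and 0.0 counts, and Slc2a1-201 had 95.1 and 83.9 TPM.

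The annotated lengths of both transcripts changed between these annotations. Slc2a1-204 has 2241 bases on M21 and 1316 on M4, and Slc2a1-201 has 3260 and 2607. The 653 bases that Slc2a1-201 gained equal the distance by which it ends downstream of Slc2a1-204 on M21. The tables hold no reads over single exon junctions, so the part of the annotated ends in these shares was not tested. By expected counts Slc2a1-201 led on M21 too, with 2650.8 and 1914.7 counts against 1902.5 and 1768.0 for Slc2a1-204.

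Adgra2-201 led its gene with 71.0% and 84.9%. Adgra2-202 lacks 3 adjoining exons of 645 bases in total, which leaves the reading frame intact (215 codons), and the exons were held by 77.7% and 90.0% of TPM on M21 and by 77.8% and 90.5% on M4. Adgra2-202 rested on 90.6 and 35.1 counts, and its deposited bounds of 0.309 to 1.71 and 0.0314 to 1.09 TPM overlapped between the pools.

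Slco1c1 had no dominant transcript on M21. Of its protein-coding transcripts, Slco1c1-201 had 1.58 and 0.940 TPM and Slco1c1-206 had 1.10 and 1.24 TPM. Slco1c1-205, annotated for nonsense-mediated decay, had 0.880 and 2.68 TPM. The bounds of each transcript overlapped between the pools (0.000803 to 2.07 and 0.122 to 2.08 for Slco1c1-201), so the change of the leading transcript is within the stated precision. Transcripts annotated for decay summed to 41.4% and 65.5% of the gene, and protein-coding transcripts to 54.9% and 32.7%. M4 lists only Slco1c1-201 and Slco1c1-202, and there Slco1c1-201 held 68.0% and 67.7%.

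**Figure D3:**
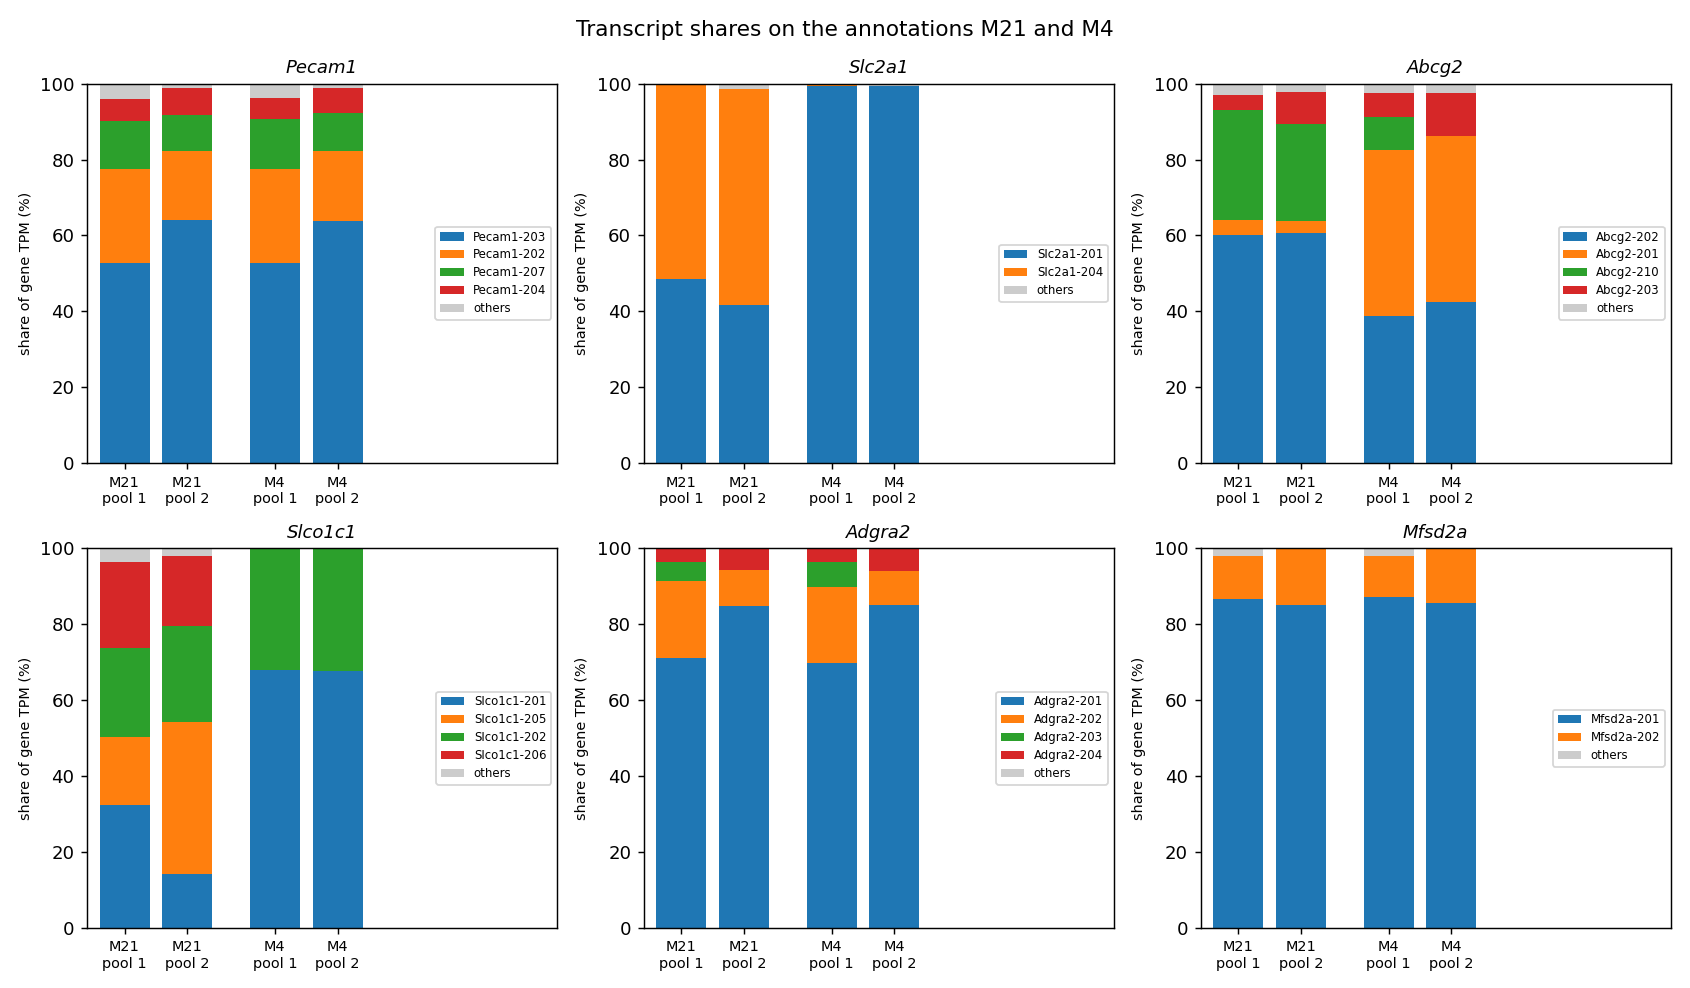
Share of each gene's TPM held by its transcripts on M21 and on M4, with pool 1 left of pool 2 and transcripts that never reach 5% joined as others. Pecam1, Adgra2 and Mfsd2a look alike on both annotations, whereas Slc2a1-204 holds 51.3% and 56.8% on M21 and 0.366% and 0 on M4, and Abcg2 and Slco1c1 are divided differently.

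Abcg2 has alternative starts, and the stretches upstream of 3 of them are shown because the annotated transcripts divide by start. The windows are the 250 bases before RefSeq starts on GRCm38.p6, plus strand, at chr6:58584283-58584532 (start 1), chr6:58596422-58596671 (start 2) and chr6:58640296-58640545 (start 3). Capitals mark matches, on either strand, to a GC box (GGGCGG) or a cyclic AMP response element (TGACGTCA), and no matches overlap in these windows.
Abcg2 start 1: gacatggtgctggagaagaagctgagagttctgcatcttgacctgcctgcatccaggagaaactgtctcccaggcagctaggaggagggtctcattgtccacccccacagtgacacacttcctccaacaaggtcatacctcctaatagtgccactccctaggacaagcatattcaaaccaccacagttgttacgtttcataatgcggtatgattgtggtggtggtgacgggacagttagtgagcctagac
Abcg2 start 2: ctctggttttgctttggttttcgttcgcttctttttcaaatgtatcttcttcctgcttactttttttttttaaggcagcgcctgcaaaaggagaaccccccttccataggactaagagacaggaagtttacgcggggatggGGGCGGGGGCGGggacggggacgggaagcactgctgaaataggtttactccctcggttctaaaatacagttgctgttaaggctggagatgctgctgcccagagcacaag
Abcg2 start 3: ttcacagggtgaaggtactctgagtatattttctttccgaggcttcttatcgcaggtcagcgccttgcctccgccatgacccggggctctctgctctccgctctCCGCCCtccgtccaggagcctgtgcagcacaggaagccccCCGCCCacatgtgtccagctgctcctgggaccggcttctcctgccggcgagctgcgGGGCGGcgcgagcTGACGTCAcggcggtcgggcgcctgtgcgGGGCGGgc

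Start 3 took most of the Abcg2 reads on M21. Transcripts that begin there, led by Abcg2-202, had 837.1 counts in pool 1 and 778.3 in pool 2, or 80.0% and 84.0% of the gene's counts. Abcg2-201, which begins at start 2, had 148.1 and 106.1 counts (14.2% and 11.4%), and transcripts of start 1 had 0.0 counts in both pools. Abcg2-210, a short model of 348 bases, begins at position 58595975, upstream of the window shown for start 2, and had 47.6 and 37.4 counts (4.55% and 4.04%). By TPM, start 3 held 64.0% and 70.5%, Abcg2-210 held 29.0% and 25.5%, and start 2 held 4.01% and 3.21%.

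The division again differed by annotation. On M4, start 2 held 54.0% and 51.6% of the gene's counts, start 3 held 43.5% and 47.4%, and Abcg2-210 held 1.15% and 0%. Abcg2-201 has 5717 bases on M21 and 2492 on M4, and it took 148.1 and 106.1 counts on M21 and 562.1 and 476.8 counts on M4. Abcg2-202 has 2178 bases on both and took 821.1 and 743.4 counts on M21 and 432.9 and 400.4 on M4. Start 1 had 0.0 counts on both annotations.

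The windows differ in their number of CG pairs. Start 3 has 23 CG pairs, start 2 has 10 and start 1 has 3, beside a median of 6 CG pairs over all 32851 RefSeq windows of the same length. Start 3 holds 4 GC boxes and 1 cyclic AMP response element, start 2 holds 2 GC boxes, and start 1 holds none of the motifs searched. RefSeq promoters were matched for 7 of the 10 genes, in 9 windows, and the unmatched genes were Pecam1, Cdh5 and Adgra2. GC boxes were in 5 of these 9 (Abcg2, Cldn5, Kdr and Slc2a1) and in 32.7% of all windows, the cyclic AMP response element in 1 of 9 and in 1.55%, and the TATA box (TATAAA) in 0 of 9 and in 12.4%. A match is a run of letters and not evidence of binding.

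At the level of whole genes the annotation mattered less. None of the 9 genes at 1 TPM or more on M21 differed 1.5-fold or more between M21 and M4, beside 6.62% of all 15825 genes at that level. Abcg2 differed most, with 33.0 and 32.1 TPM on M21 and 28.4 and 26.0 TPM on M4, a log2 ratio of 0.26 for M21 over M4.

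Related genes were set beside the 10 as lists, and all lists are described by counts and medians alone. The name of a list does not say which cells held the RNA of its genes, and this was not tested. All 16 other pan-endothelial genes were at 1 TPM or more in both pools, with a median of 16.1 TPM, close to the 16.9 and 14.2 TPM of Pecam1 and Cdh5. The list summed to 309 TPM in pool 1 and 306 TPM in pool 2. Highest were Egfl7, a secreted endothelial factor (51.5 ± 6.14 TPM), Ramp2, a partner of the adrenomedullin receptor (47.1 ± 1.44), Cd34 (36.5 ± 2.64) and the junction protein Esam (24.8 ± 0.424). Caveola and fenestra genes were all expressed too, 5 of 5, with Cavin1 at 44.1 ± 6.17 TPM, Cav1 at 12.6 ± 1.06 TPM and Cav2 at 6.53 ± 0.0212 TPM. Plvap, the diaphragm protein of fenestrated and immature vessels, had 30.8 and 32.6 TPM, above Cldn5 in both pools.

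Of the VEGF and sprouting genes, 12 of 12 reached 1 TPM with a median of 5.23 TPM. The coreceptors Nrp1 (41.6 ± 5.75 TPM) and Nrp2 (34.5 ± 0.940 TPM), which axons also carry, and the ligand Vegfb (26.7 ± 2.81 TPM) were highest, with Angpt1 at 10.4 ± 1.33 TPM. On M4 the mean of Nrp1 was 26.6 TPM, below Nrp2 (36.3) and Vegfb (28.1). Of the Wnt7 and Norrin genes, 13 of 13 reached 1 TPM, with a median of 16.2 TPM. Ctnnb1, beta-catenin (520 ± 5.83 TPM), the Wnt feedback inhibitor Nkd1 (83.6 ± 3.29), the ligand Wnt7b (60.8 ± 1.00) and the Norrin coreceptor Tspan12 (43.2 ± 0.841) led. These 4 genes are expressed in many cell types of neural tissue. The mean of Nkd1 was 46.2 TPM on M4, below Wnt7b (60.5). The barrier transcription factors were lower, 6 of 6 above 1 TPM with a median of 6.26 TPM. Among them, Foxf2 had 7.27 ± 0.0283 TPM, Sox17 6.28 ± 0.283 TPM and Tcf7 6.23 ± 0.601 TPM.

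Of the list of tight junction partners, 13 of 14 genes reached 1 TPM in both pools, with a median of 11.5 TPM. Whether they were expressed in the same cells as Cldn5 was not tested. Jam3 (102 ± 0.332 TPM), Jam2 (35.9 ± 1.62) and the scaffold gene Tjp1 (28.1 ± 0.0283) were highest. Of other barrier transporters and receptors, 13 of 16 reached 1 TPM, with a median of 13.3 TPM. The amino acid carrier subunit Slc3a2 (97.7 ± 0.191 TPM), the endocytic receptor Lrp1 (87.2 ± 1.45), the taurine carrier Slc6a6 (57.1 ± 3.91) and the insulin receptor Insr (38.8 ± 1.20) led. Under 1 TPM in both pools were Slco1a4, an organic anion carrier of mature brain vessels (0.140 and 0.0800 TPM), Slc22a8, an organic anion transporter (0.690 and 0.710), and Abcb1b. Abcb1a was thus not the only transporter gene below 1 TPM. The order of the leading genes of this list depended on the annotation. On M4 the mean of Slc3a2 was 60.7 TPM, and that of Slc6a6 was 27.4 TPM, below Insr (38.7).

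Of the arterial list, 5 of 7 genes reached 1 TPM in both pools, led by Efnb2 (48.6 ± 1.46 TPM), Hey1 (31.0 ± 0.997), Gja4 (11.2 ± 0.622) and Gja5 (5.43 ± 1.34). Efnb2 and Hey1 stood above Cdh5 (14.2 TPM), and the part of arteries in their levels was not tested. The kinase gene Bmx (0.190 and 0.460 TPM) and Sema3g (0.610 and 0.950 TPM) were below 1 TPM. All 6 venous and lymphatic genes reached it, led by Nr2f2 (108 ± 7.33 TPM) and Pdpn (66.4 ± 3.65), both of which neural or mesenchymal cells also express, and by Aplnr (34.7 ± 3.56) and Ephb4 (33.1 ± 2.03). All 9 genes of the pericyte list, which includes the ligand gene Pdgfb, reached it, with a median of 4.26 TPM. Highest were Vtn (106 ± 21.1 TPM), Pdgfrb (29.2 ± 1.17), Notch3 (18.2 ± 0.134) and Cspg4 (6.06 ± 1.11). The part of pericytes in these levels was not tested.

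**Figure D4:**
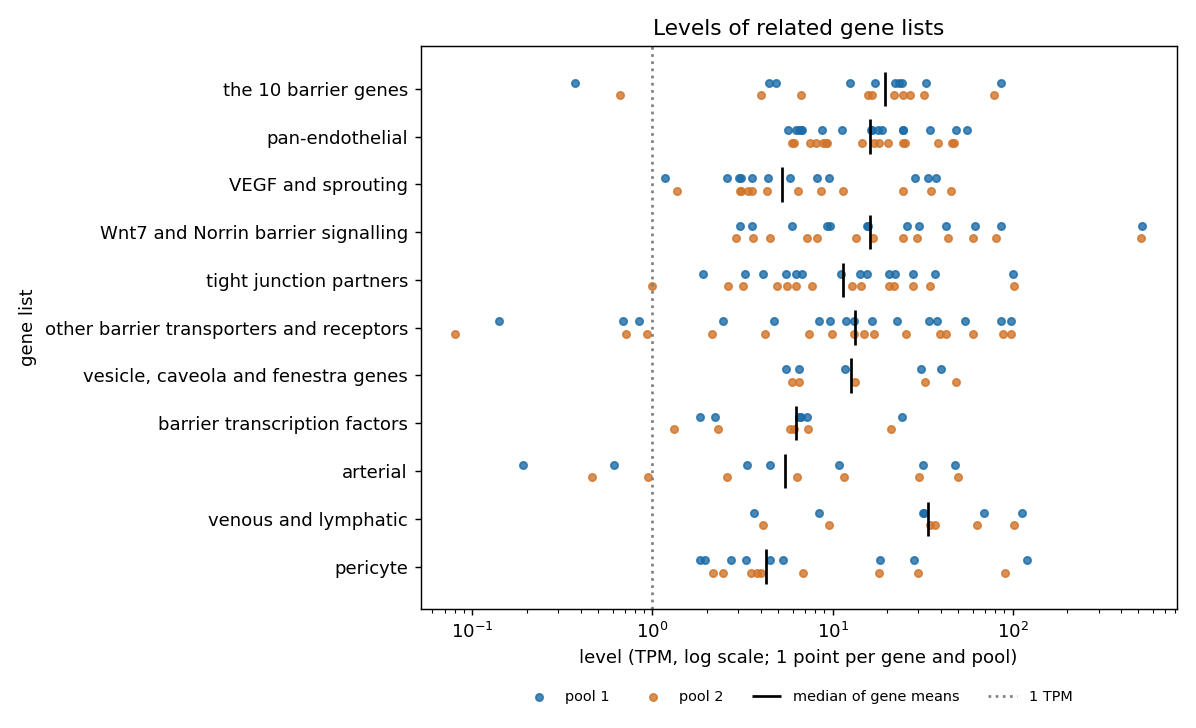
TPM on a log axis of the 10 barrier genes and of the 10 related lists, 1 point per gene and pool (pool 1 above pool 2), with a bar at the median of the gene means. The median of the barrier genes is 19.5 TPM, and the list medians run from 4.26 TPM for the pericyte list to 33.9 TPM for the venous and lymphatic list.

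Markers of other cell types, some of which express these genes, were detected in both pools. Erythroid markers (7 of 7 at 1 TPM or more) summed to 17114 TPM in pool 1 and 13650 TPM in pool 2, and Slc2a1 was likewise higher in pool 1. Choroid plexus markers (6 of 7, with Kl at 0.240 TPM) summed to 367 and 431 TPM, and Slco1c1, which choroid plexus also expresses, was likewise higher in pool 2. Platelet and myeloid markers, relevant to Pecam1, summed to 81.3 and 66.4 TPM (6 of 6). The gap lay in Pf4, at 58.1 and 43.1 TPM, and the other 5 genes summed to 23.2 TPM in both pools. Neural progenitor markers summed to 2447 and 2241 TPM (5 of 5) and neuron markers to 1551 and 1578 TPM (5 of 5).

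Skeletal muscle markers differed most between the pools, at a sum of 25.6 TPM in pool 1 and 129 TPM in pool 2, with 5 of 5 past 1.5-fold. Markers of meninges and mesenchyme summed to 955 and 1269 TPM, lower in pool 1 for 6 of 6 genes. Of the 10 genes, Cldn5, Kdr, Cdh5, Abcb1a and Slco1c1 were lower in pool 1 by TMM-scaled counts, and the other 5 were higher. With spike-in totals only 1 of the 10 genes was lower in pool 1. No marker had 0 counts in either pool. The part of any of these cell types, or of vessels outside the brain, in the levels of the 10 genes was not tested.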

How the data were processed

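Gene and transcript tables deposited for each pool were used, made on mm10 with GENCODE M21 (main) and M4. The program that made them is not named in any source used here. Deposited expected counts are estimated reads that need not be whole. The deposited TPM values are per length and sum to 1 fixed total that covers genes, spike-ins and 26248 tRNA entries. Deposited bounds of TPM were read as a signal of unstated level. Per the labels' protocols, cDNA was primed with oligo-dT from low input and tagmented, which can affect long transcripts.

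Pool ratios used expected counts rounded to whole numbers, edgeR 4.0.16 TMM scaling with its default low-count filter and a prior count of 0.5, with exact Clopper-Pearson 95% intervals that cover counting error only; depth was 32547454 and 30559015 counts in all. Isoform shares were computed from transcript TPM. Alternatives were DESeq2 1.42.0 size factors, totals, spike-in totals, M4, other thresholds and each pool alone. The ratio step was tested on simulated data. R 4.3.3, Python 3.11.15, scipy 1.17.1, numpy 2.4.6, pandas 2.3.3 and matplotlib 3.10.9 were used. GENCODE M21 gave symbols and coordinates for all genes, and RefSeq (GRCm38.p6) the promoters.

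All 10 genes are named, and of each list the 4 of highest mean TPM and up to 3 under 1 TPM in both pools. Some genes and 1 sequence that these choices cover are not reported here. Marker genes for endothelium, Reck, Brf2 and Pdgfb are named outside this rule. The 10 genes and the lists were chosen with earlier results of these data known. No gene of like pattern was sought, since 2 replicates of 1 group show no pattern. Replicates are separate pools, per the labels.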

Additional observations from a re-analysis of the deposited data

How the results depend on the processing

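A value was taken to have moved when it left the SD between the pools (levels and shares), the counting interval (pool ratios) or a factor of 1.5 (counts of genes). With 2 pools, the level or share in each pool alone always lies within that SD of the mean. Comparisons with 1 pool alone could therefore not move for levels and shares of genes and transcripts, and they say nothing of stability. They are counted below as not moved. Each summary value over the 10 genes was compared with its value under several other settings, and by this measure 4 comparisons moved and 32 did not. Among those 32 was the count of genes past the TPM threshold, which was 9 at 1 TPM and 7 at 5 TPM. The median of 19.5 TPM became 20.4 on M4 and 21.4 when TPM was rescaled over genes only, which raises every gene alike. The median log2 ratio of pool 1 over pool 2, 0.05 with TMM, was 0.42 with spike-in totals. With a log2 limit of 0.32 in place of that for 1.5-fold, 2 genes (Cdh5 and Slco1c1) were apart between the pools in place of 0. Of such comparisons for single genes and transcripts, 28 moved and 124 did not, where wide limits can hide large differences. Abcb1a-201 held 72.0% of its gene and 43.9% or 100% in 1 pool alone, and Slco1c1-205 held 29.1% and 40.2% or 18.0%. The Abcb1a ratio of -0.39 ran from -0.69 (deposited TPM) to -0.02 (spike-in totals). Among isoform shares, Slc2a1-204 held 54.0% of its gene by TPM, 44.8% by expected counts and 0.183% on M4, and Abcg2-202 held 60.3%, 79.3% and 40.6%. The M4 shares of exons and of Abcg2 starts were added after the data were seen; start 3 of Abcg2 held 67.2% of TPM on M21 and 49.5% on M4, and start 2 held 3.61% and 43.8%. No paired analysis was possible because the series holds 1 group. With 2 pools the spread is known only roughly, and genes with counts as low as Abcb1a cannot be ordered by isoform.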
